A study of Mus musculus with 17 samples.

Results

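The genes described here were 7 members of the cholesterol synthesis pathway and its regulator SREBP2: Hmgcs1, Idi1, Sqle, Lss, Cyp51, Srebf2 and Insig1. They were taken by gene name from 3 expression tables of cells isolated from mouse lung tumors, and the 7 genes were found in each table, out of 17555 distinct gene names in all. The tables held tumor cells, TRMs and MDMs, the latter 2 being macrophage populations as the study abbreviates them. Each table had 2 libraries of each genotype, KL and KLG4, so that 12 libraries fell into 6 groups. KL mice carried floxed Lkb1 (Lkb1fl/fl) together with another Cre-inducible allele that drives tumor formation. KLG4 mice carried the same alleles and, in addition, Gpx4m/m, a modified Gpx4 allele with rox-flanked exons. This allele also encodes a tamoxifen-dependent Dre recombinase driven by the CAG promoter behind a stop cassette that Cre removes. Gpx4 exons are therefore removed only in cells that have met Cre. Mice of both genotypes received adenoviral Cre (Ad-Cre) through the nose as well as tamoxifen, and lungs were taken 10 weeks after Ad-Cre. The study describes the tumor cell libraries of a group as coming from separate mice. For the macrophage libraries the sources used here do not say so, and p-values there measure the spread between libraries, which may be technical. The remaining 5 samples were not analysed here.

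Cells make cholesterol from acetyl-CoA. Hmgcs1 encodes the cytosolic HMG-CoA synthase that feeds the mevalonate steps, and Idi1 encodes isopentenyl diphosphate isomerase, which prepares the isoprenoid units. Sqle (squalene epoxidase) and Lss (lanosterol synthase) turn squalene into the first sterol, and Cyp51 removes a methyl group from lanosterol. Srebf2 encodes SREBP2, the transcription factor that is released from the endoplasmic reticulum when sterols are scarce and then activates genes of this pathway, its own gene included. Insig1 is both a target of SREBP2 and a brake on it, because the INSIG1 protein holds the SREBP2 precursor in the endoplasmic reticulum when sterols are plentiful. SREBP2 activity is set largely by this release, so that the amount of Srebf2 transcript is not a measure of it. Lung alveolar type 2 (AT2) cells make sterols and lipids for surfactant, and macrophages take up and store sterols.

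The promoters of the genes, from 250 bases before to 50 bases after the start site, were matched by symbol in RefSeq (GRCm38.p6) for 6 of the 7 genes, Sqle being the one without an entry. TCACNCCA, the letters common to many sterol regulatory elements, and CCAAT, the binding motif of the NF-Y factor that acts beside SREBP2, were searched on both strands. TCACNCCA occurred in 2 of 6 promoters, those of Hmgcs1 and Srebf2, and in 4.36% of the 32851 promoters in the table. CCAAT occurred in 6 of 6, against 37.4% of all promoters. The GC box GGGCGG occurred in 6 of 6 as well, against 35.7%. The E-box CACGTG, a motif that SREBPs can also bind, occurred in 1 of 6, that of Insig1, against 7.15%. None of these motifs contains another, and a match describes letters and does not show a bound site. The 4 promoters below are shown because Hmgcs1 and Srebf2 hold TCACNCCA and had estimates of opposite sign in tumor cells, whereas Idi1 and Cyp51, which passed the test together with Hmgcs1, do not hold it. Capitals mark TCACNCCA and CCAAT or their reverse complements, and each sequence reads along the strand of the gene.
Hmgcs1 (chr13:119690101-119690400, plus strand): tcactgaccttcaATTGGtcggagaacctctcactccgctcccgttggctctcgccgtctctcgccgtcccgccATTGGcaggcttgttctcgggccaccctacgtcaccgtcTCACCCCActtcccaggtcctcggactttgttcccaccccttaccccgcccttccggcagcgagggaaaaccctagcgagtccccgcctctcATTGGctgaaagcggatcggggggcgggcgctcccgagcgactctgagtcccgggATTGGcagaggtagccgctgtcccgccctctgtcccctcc
Srebf2 (chr15:82147019-82147318, plus strand): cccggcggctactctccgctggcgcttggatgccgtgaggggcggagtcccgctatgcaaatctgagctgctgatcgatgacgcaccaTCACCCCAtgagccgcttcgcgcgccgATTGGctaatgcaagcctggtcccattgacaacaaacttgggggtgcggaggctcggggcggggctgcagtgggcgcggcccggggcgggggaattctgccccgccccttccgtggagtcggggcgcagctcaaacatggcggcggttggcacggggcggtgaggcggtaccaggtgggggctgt
Idi1 (chr13:8885356-8885655, plus strand): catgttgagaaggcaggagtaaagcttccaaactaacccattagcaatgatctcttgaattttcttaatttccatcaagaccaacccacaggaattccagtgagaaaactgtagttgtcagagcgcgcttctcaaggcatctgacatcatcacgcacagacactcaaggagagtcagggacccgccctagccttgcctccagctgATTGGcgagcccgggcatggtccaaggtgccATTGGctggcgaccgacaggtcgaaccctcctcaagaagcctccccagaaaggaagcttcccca
Cyp51 (chr5:4104648-4104947, minus strand): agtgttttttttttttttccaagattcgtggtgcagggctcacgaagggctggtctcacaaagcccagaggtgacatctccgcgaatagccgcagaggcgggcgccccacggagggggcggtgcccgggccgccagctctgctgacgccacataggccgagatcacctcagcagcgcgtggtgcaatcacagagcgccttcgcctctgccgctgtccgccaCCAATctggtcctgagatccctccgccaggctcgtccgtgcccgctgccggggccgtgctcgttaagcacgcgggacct
In Hmgcs1 the TCACNCCA match began 137 bases before the start site, with CCAAT matches beginning 237, 176 and 45 bases before it and 10 bases after it. In Srebf2 it began 162 bases before the start site, followed by a CCAAT match that began 135 bases before it.

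In the GRCm38 annotation the 7 genes are protein coding and lie on 4 chromosomes. Hmgcs1 (119690379 to 119708260) and Idi1 (8885501 to 8892451) are on chromosome 13, Sqle (59315077 to 59331192) and Srebf2 (82147181 to 82205379) on chromosome 15, Insig1 (28071363 to 28078662) and Cyp51 (4081145 to 4104746) on chromosome 5, and Lss (76531588 to 76557138) on chromosome 10. Reads were counted over exons without regard to strand, so reads in exonic bases shared with a gene on the opposite strand cannot be assigned. Such bases made up 12.1% of the exonic bases of Hmgcs1 (with Gm48342), 9.22% of Idi1 (with Gm48574), 3.76% of Cyp51 (with Akap9) and 3.53% of Lss (with 4930483K19Rik), and 0 in Sqle, Insig1 and Srebf2. For Hmgcs1 and Srebf2 these shares are approximate, because the gene models of the deposited tumor cell table were shorter (3233 and 4989 bases) than those of this annotation (4594 and 7184 exonic bases).

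Values are RPKM, reads scaled to gene length and to the counted reads of the library. Depth, recovered from the RPKM steps, was 30.2 to 36.6 M (megareads) in KL and 15.9 to 17.6 M in KLG4 tumor cells, 9.14 to 26.8 M in TRMs and 10.4 to 26.1 M in MDMs. Gpx4, the targeted gene, was at 94.95 and 76.8 RPKM in KL and 56.4 and 61.9 RPKM in KLG4 tumor cells (log2 fold change -0.53, adjusted p = 0.036 by limma). It was at 89.8 and 88.2 RPKM in KL and 53.8 and 57.0 RPKM in KLG4 TRMs, and at 44.9 and 71.3 RPKM in KL and 93.6 and 97.7 RPKM in KLG4 MDMs. The 6 alveolar macrophage markers in the tables summed to 8344 to 12763 RPKM in TRMs and 1246 to 2283 RPKM in MDMs, and the 7 markers of monocyte-derived macrophages to 49.4 to 123 RPKM in TRMs and 500.2 to 617 RPKM in MDMs, so the macrophage labels went with their markers, but the KLG4 tumor cell libraries held more markers of other cells. Epcam, the surface protein used for sorting tumor cells, was at 638 and 420 RPKM in KL and 215 and 211 RPKM in KLG4 tumor cells, and the leukocyte gene Ptprc was at 0.834 and 2.06 RPKM in KL and 26.7 and 27.4 RPKM in KLG4. The 2 KLG4 tumor cell libraries were far more alike than any other pair, with a chi-square per gene of 3.28 against 28.9 to 132 in the other 5 pairs. Both mates of a read pair were mostly counted, so this value alone cannot show that the 2 libraries differed beyond counting noise. They were kept as 2 samples. Mitochondrial genes took 22.3% to 31.5% of reads in KL TRMs and 2.95% to 5.78% in KLG4 TRMs, and 7.38% to 8.26% in KL and 14.7% to 14.8% in KLG4 tumor cells. Xist, which marks female cells, was at 0.257 and 0.501 RPKM in KL and 18.3 and 20.2 RPKM in KLG4 TRMs, so that sex and genotype cannot be told apart in that table.

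In tumor cells 3 enzymes of the set fell in KLG4 against KL, while Sqle, Lss, Srebf2 and Insig1 did not pass the test. The 3 enzymes stand at different stages of the pathway and were Hmgcs1 (1.42-fold lower), Idi1 (1.49-fold lower) and Cyp51 (1.45-fold lower). For each of the 7 genes the 2 KLG4 libraries lay on one side of the 2 KL libraries, as they did for 42.2% (lower) and 32.5% (higher) of all genes tested.

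Hmgcs1, the most abundant of the set, was at 43.4 and 43.0 RPKM in KL and 30.9 and 29.8 RPKM in KLG4 tumor cells. The distance between the genotypes was many times the distance within either pair, with a log2 fold change of -0.51 (SE 0.11, 95% confidence interval -0.78 to -0.23, adjusted p = 0.018 by limma). Idi1 was at 14.1 and 15.7 RPKM in KL and 10.8 and 9.18 RPKM in KLG4 (-0.57, SE 0.15, adjusted p = 0.032 by limma). Cyp51 was at 11.1 and 10.6 RPKM in KL and 7.89 and 7.11 RPKM in KLG4 (-0.53, SE 0.14, adjusted p = 0.032 by limma). The 3 changes were of nearly the same size.

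The other 2 enzymes were less abundant. Lss, the lowest of the set, was at 1.25 and 1.33 RPKM in KL and 0.814 and 0.879 RPKM in KLG4, resting on 151 to 492 reads a library (-0.55, 95% confidence interval -1.10 to -0.01, adjusted p = 0.096 by limma). Sqle was at 4.62 and 5.65 RPKM in KL and 3.93 and 4.18 RPKM in KLG4 (-0.33, 95% confidence interval -0.77 to 0.12, adjusted p = 0.20 by limma). Neither passed the test over all genes. Lss met the filter on low values, at least 1 RPKM in 2 of the 4 libraries, only through its KL libraries, so its test is no support for a difference.

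Of the regulators, Srebf2 was at 6.0 and 7.74 RPKM in KL and 9.69 and 9.07 RPKM in KLG4 tumor cells (0.45, 95% confidence interval 0.01 to 0.90, adjusted p = 0.094 by limma). The 2 KL libraries lay farther from each other than the higher of them lay from the lower KLG4 library. Insig1 was at 9.39 and 9.61 RPKM in KL and 10.2 and 11.1 RPKM in KLG4 (0.16, 95% confidence interval -0.17 to 0.50, adjusted p = 0.37 by limma). Neither gene passed. The estimate of Srebf2 depended on the setting. It was 0.63 without KL replicate 2 (adjusted p = 0.011 by limma) and 0.27 without KL replicate 1 (adjusted p = 0.11 by limma), 0.41 and 0.50 without KLG4 replicate 1 or 2 (adjusted p = 0.40 and 0.31 by limma), 0.53 with TMM scaling (adjusted p = 0.047 by limma) and 0.54 with limma-voom (adjusted p = 0.030). Srebf2 is among the genes that the study singled out on these samples, so its direction here is not independent evidence.

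**Figure D1:**
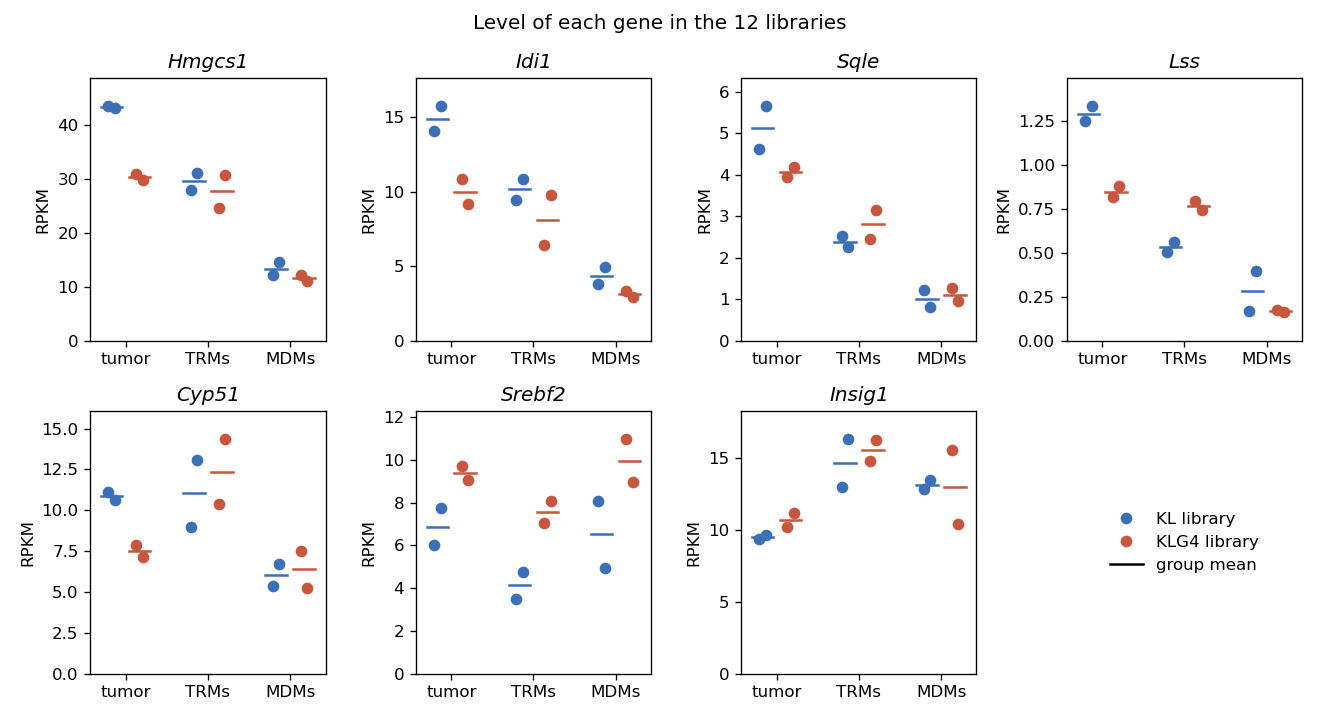
Level of each gene (RPKM, linear axes from 0) in tumor cells, TRMs and MDMs, with 1 point per library (blue KL, red KLG4) and a line at the group mean of 2 libraries. In tumor cells the 5 enzymes (Hmgcs1, Idi1, Sqle, Lss, Cyp51) have both red points below both blue points, and Srebf2 has both red points above both blue points in each population.

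Thus 3 of 7 genes were called lower and 0 of 7 higher in KLG4 tumor cells at an adjusted p under 0.05, and 5 of 7 had an unadjusted p under 0.05 by limma, against 6937 of all 13770 genes tested. Lss, whose test is no support for a difference, is among the 5. Many genes changed in this comparison. Over all genes tested 19.6% were called lower and 20.6% higher (2700 and 2843 genes, against 1989 and 3059 after TMM scaling and 4130 and 2585 after quantile scaling). Complete separation of the genotypes was commoner still: 5 of the 7 genes were lower without overlap and 2 of the 7 higher, against the shares of all genes given above. The median log2 fold change of the set was -0.51, and that of all genes was -0.09. The calls depended on scaling and on single libraries. After rescaling to reads outside mitochondrial genes, which moved the median of all genes to 0.02, Hmgcs1 alone of the 7 passed (-0.40), and after quantile scaling, which moved it to -0.25, 5 passed. Without KLG4 replicate 1 or without KLG4 replicate 2, which leaves 1 KLG4 library that is assumed to vary like the others, none of the 7 passed, with 0.173 and 0.205 as the adjusted p of Hmgcs1 by limma. The estimates stayed below 0 for each of the 5 enzymes and above 0 for Srebf2 and Insig1 under all alternatives tried.

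Markers of other cells moved with these changes. Of 7 leukocyte markers 7 were higher without overlap in the KLG4 tumor cell libraries, and their summed level was 182 to 192 RPKM against 16.6 to 21.3 RPKM in KL. The 6 fibroblast markers summed to 369 RPKM in each KLG4 library and 10.6 to 15.7 RPKM in KL, and the 5 plasma cell markers in the table to 1795 to 1831 RPKM against 188 to 194 RPKM. Of these 5 plasma cell markers 4 were higher without overlap, while Sdc1 was lower (log2 fold change -1.35, adjusted p = 0.00075 by limma). The 6 macrophage markers summed to 879 to 915 RPKM in KLG4 and 229 to 290 RPKM in KL, and the 6 T cell markers to 52.8 to 60.6 RPKM against 2.18 to 3.53 RPKM. The 7 markers of monocyte-derived macrophages summed to 114 to 118 RPKM in KLG4 and 6.75 to 10.1 RPKM in KL, the 6 of alveolar macrophages in the table to 397 to 405 RPKM against 69.0 to 81.7 RPKM, the 5 B cell markers to 5.34 to 5.77 RPKM against 0.862 to 1.08 RPKM, and the 6 endothelial markers to 14.0 to 14.2 RPKM against 6.17 to 10.3 RPKM. Without overlap 4 of the 6 alveolar macrophage markers were higher and 1, Pparg, lower, and 4 of the 6 endothelial markers were higher. All leukocyte, fibroblast, macrophage, T cell, B cell and monocyte-derived macrophage markers listed were higher without overlap. The markers expected in the sorted cells went the other way. The 6 epithelial markers summed to 3572 to 3580 RPKM in KLG4 and 6179 to 8322 RPKM in KL (median log2 fold change -1.02, 6 of 6 lower), and the 9 AT2 markers to 1255 to 1271 RPKM against 3625 to 4083 RPKM (median -1.47, 9 of 9 lower). The part of these markers in the result was not tested, and in bulk samples fewer cells of a type and less RNA per cell cannot be told apart.

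The rest of the pathway was read from lists that were compiled from pathway membership. Of 16 further synthesis genes, 13 were tested in tumor cells. Of these, 4 were called lower, 1 was called higher and 8 did not pass, with a median log2 fold change of -0.33, against 19.6% lower, 20.6% higher and a median of -0.09 over all genes tested. Pmvk, phosphomevalonate kinase, fell most, with 174 and 186 RPKM in KL and 62.8 and 62.3 RPKM in KLG4 (-1.52, SE 0.11, adjusted p = 0.00051 by limma), and it passed under all 14 alternatives. Fdps and Fdft1, which make farnesyl diphosphate and squalene, fell by 0.47 and 0.50 on the log2 scale (adjusted p = 0.046 and 0.026 by limma). Both share exonic bases with other genes, Fdps 26.7% with Gm43738 and Fdft1 18.3% with Ctsb. Msmo1, a sterol methyl oxidase, was at 5.25 and 4.78 RPKM in KL and 2.77 and 3.03 RPKM in KLG4 (-0.77, adjusted p = 0.018 by limma). Together with the members, 7 of 18 tested enzymes were called lower and 1 higher, a count in which 3 are the members already given. The called genes ran from the first mevalonate steps to those after lanosterol, and the uncalled ones lay between them.

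Some enzymes did not follow. Mvk, mevalonate kinase, was at 2.77 and 2.40 RPKM in KL and 2.84 and 3.12 RPKM in KLG4 (0.20, 95% confidence interval -0.27 to 0.67, adjusted p = 0.43 by limma). Mvd, the decarboxylase of the mevalonate steps, had the highest estimate of its list at 0.29 (adjusted p = 0.19 by limma). Lbr was the one synthesis gene called higher, at 2.28 and 3.05 RPKM in KL and 5.36 and 4.56 RPKM in KLG4 (0.88, adjusted p = 0.025 by limma). Its product, the lamin B receptor, is a sterol reductase that is also a structural protein of the nuclear envelope.

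**Figure D2:**
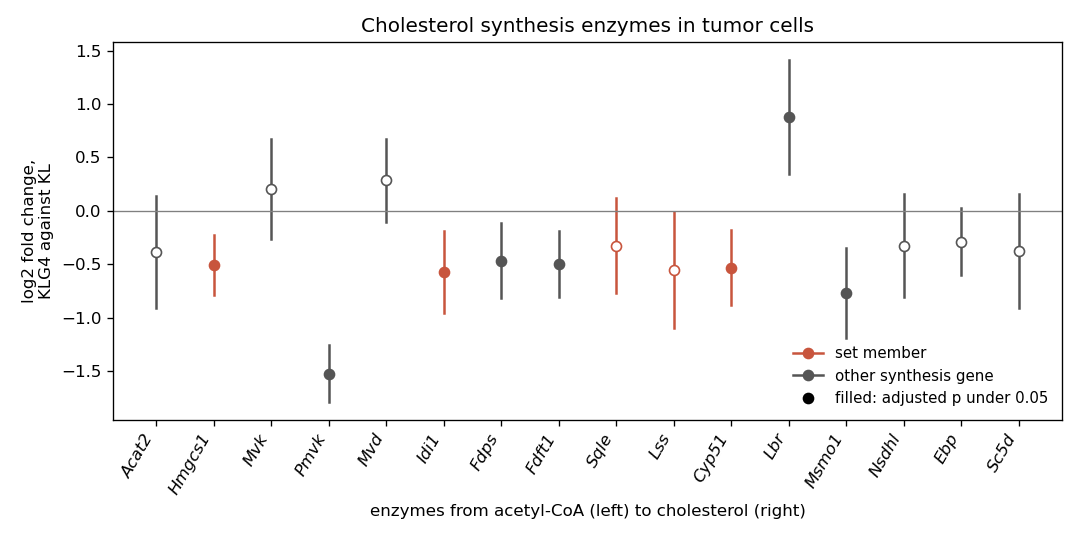
Log2 fold change of KLG4 against KL in tumor cells (vertical axis, log2(RPKM + 0.1) scale) for 16 of the 18 tested enzymes of cholesterol synthesis (the other 2 are not reported) in approximate pathway order. Points are estimates and lines 95% confidence intervals from limma on 2 libraries per genotype, filled where the adjusted p was under 0.05. The 5 set members (red) lie between -0.57 and -0.33, Pmvk is lowest at -1.52 and Lbr highest at 0.88.

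Among the genes that process SREBP, 4 of 5 were tested in tumor cells and 0 were called, with 1 at an unadjusted p under 0.05. Srebf1, the gene of the related factor SREBP1, had the lowest estimate (-0.45, adjusted p = 0.053 by limma), and Scap, the escort of the SREBPs, the highest (0.05, adjusted p = 0.85 by limma). Insig2, the paralog of Insig1, was at -0.41 (adjusted p = 0.099 by limma). The list of SREBP2 targets outside synthesis had 4 tested genes and 1 call. That call was Mylip, with 3.93 and 4.0 RPKM in KL and 24.7 and 20.2 RPKM in KLG4 (2.46, adjusted p = 0.00041 by limma). Mylip encodes an E3 ligase that is best known as a target of the LXR factors, which respond to sterol excess, so it does not do what the name of its list says. It was at 25.4 to 31.4 RPKM in the 4 MDM libraries and 7.90 to 9.92 RPKM in the 4 TRM libraries. Stard4, a sterol carrier, had the lowest estimate of the list (-0.57, adjusted p = 0.15 by limma).

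Of 7 tested genes of the mevalonate branches, which lead to prenylated proteins, ubiquinone and dolichol, 2 were called lower and 0 higher, against 19.6% and 20.6% of all genes tested. They were Fntb, the farnesyltransferase beta subunit (-0.96, adjusted p = 0.011 by limma), and Ggps1, geranylgeranyl diphosphate synthase (-0.54, adjusted p = 0.034 by limma). Dhdds, of the dolichol branch, had the highest estimate (-0.02). Of 7 tested genes of sterol storage, oxysterols and lysosomal export, 4 were called higher and 1 lower, against the same shares of all genes. Ch25h (2.93), Cyp7b1 (2.90) and Cyp27a1 (2.74), enzymes that make or hydroxylate oxysterols, and Lipa (1.57), the lysosomal acid lipase, rose, while Npc2, a lysosomal sterol carrier, fell by 1.32 on the log2 scale. Ch25h, Cyp7b1 and Cyp27a1 were below 0.4 RPKM in both KL tumor cell libraries and met the filter only through the KLG4 group, where a gene that low in KL had to differ, so these calls are no support for a direction of the list. Ch25h was at 6.72 to 7.81 RPKM and Lipa at 50.5 to 92.0 RPKM in TRMs, against 0.426 to 4.57 RPKM and 11.7 to 15.6 RPKM in MDMs. Cyp7b1 was not analysed in TRMs or MDMs. The leukocyte, macrophage and fibroblast markers listed above were higher without overlap in the same KLG4 tumor cell libraries.

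In TRMs none of the set passed the test, and Srebf2 had the highest estimate. Hmgcs1, Sqle, Insig1, Idi1 and Cyp51 overlapped between the genotypes. A total of 6 of the 7 genes passed the filter on low values. With limma 0 of 6 had an adjusted p under 0.05 and 1 of 6, Srebf2, an unadjusted p under 0.05, against 3111 of all 10990 genes tested, and limma-voom on the recovered reads also called 0. Over all genes tested 1.36% were called higher and 0.437% lower in KLG4 (150 and 48 genes, against 8 and 22 after TMM scaling). Both KLG4 libraries were above both KL libraries in 53.7% of genes and below them in 8.95%, against 1 and 0 of the 6 tested set members. The median of all genes was 0.38 in this table and 0.00 after TMM scaling, so each estimate is also given relative to it.

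Srebf2 was at 3.51 and 4.74 RPKM in KL and 7.06 and 8.06 RPKM in KLG4 TRMs (0.87, 95% confidence interval 0.24 to 1.5, adjusted p = 0.10 by limma). Its difference was 0.49 above the median of all genes and also 0.49 after TMM scaling. Without KL replicate 2 it was 1.08 and passed (adjusted p = 0.037 by limma), and without KL replicate 1 it was 0.66 (adjusted p = 0.18 by limma). Without KLG4 replicate 1 or 2 it was 0.97 and 0.78 (adjusted p = 0.36 and 0.43 by limma). Insig1 was at 13.0 and 16.3 RPKM in KL and 14.8 and 16.3 RPKM in KLG4 (0.09, or -0.29 relative to all genes).

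The enzymes showed no call in either direction. Hmgcs1 was at 27.9 and 31.1 RPKM in KL and 24.7 and 30.7 RPKM in KLG4 TRMs (-0.10, 95% confidence interval -0.57 to 0.37). Idi1 was at 9.47 and 10.9 RPKM in KL and 6.44 and 9.76 RPKM in KLG4 (-0.35, 95% confidence interval -1.01 to 0.30). KLG4 replicate 1 was the lower KLG4 library for both. Sqle was at 2.52 and 2.25 RPKM in KL and 2.44 and 3.16 RPKM in KLG4 (0.21, 95% confidence interval -0.52 to 0.95), and Cyp51 was at 8.99 and 13.1 RPKM in KL and 10.4 and 14.3 RPKM in KLG4 (0.17, 95% confidence interval -0.52 to 0.85). Relative to the median of all genes the estimates of Hmgcs1, Idi1, Sqle and Cyp51 were -0.48, -0.73, -0.17 and -0.21. The intervals of Hmgcs1, Idi1 and Sqle hold the estimate of the same gene in tumor cells, and that of Cyp51 ends just above it. Lss did not pass the filter and was not tested, at 0.501 and 0.558 RPKM in KL (54 and 55 reads) and 0.793 and 0.741 RPKM in KLG4 (229 and 94 reads), higher without overlap.

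Of the other synthesis genes 12 of 16 were tested in TRMs and 0 were called by limma, with 1 at an unadjusted p under 0.05, while limma-voom called 1. The lowest estimate was that of the mevalonate kinase gene Mvk (-0.42). The desaturase gene Sc5d was lowest of the steps after lanosterol at -0.30, and Fdft1 was at 0.04. The median of the 12 genes was 0.21, below the 0.38 of all genes.

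Among SREBP processing genes in TRMs 0 of 5 were called and 1 had an unadjusted p under 0.05, from Mbtps1, a protease that cuts SREBPs (1.14, adjusted p = 0.12 by limma), down to Mbtps2 (0.18). None of 6 mevalonate branch genes was called (Pggt1b highest at 0.94, Fntb lowest at 0.13, 1 at an unadjusted p under 0.05), nor any of 6 genes of sterol storage and export (Npc1 highest at 1.07, Ch25h lowest at -0.01, 3 at an unadjusted p under 0.05). The 9 AT2 markers summed to 171 to 182 RPKM in KL and 36.1 to 69.8 RPKM in KLG4 TRMs (5 of 9 lower and 2 of 9 higher without overlap), and the 6 epithelial markers to 127 to 145 RPKM against 65.8 to 105 RPKM (4 of 6 lower and 1 higher). The 7 markers of monocyte-derived macrophages summed to 49.4 to 63.3 RPKM in KL and 101 to 123 RPKM in KLG4 TRMs (5 of 7 higher without overlap), and the 6 alveolar macrophage markers in the table to 8344 to 8482 RPKM against 11896 to 12763 RPKM (4 of 6 higher and 1 lower without overlap). These markers, the mitochondrial share of reads and the sex of the libraries moved with genotype in this table, and their part in the result was not tested.

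**Figure D3:**
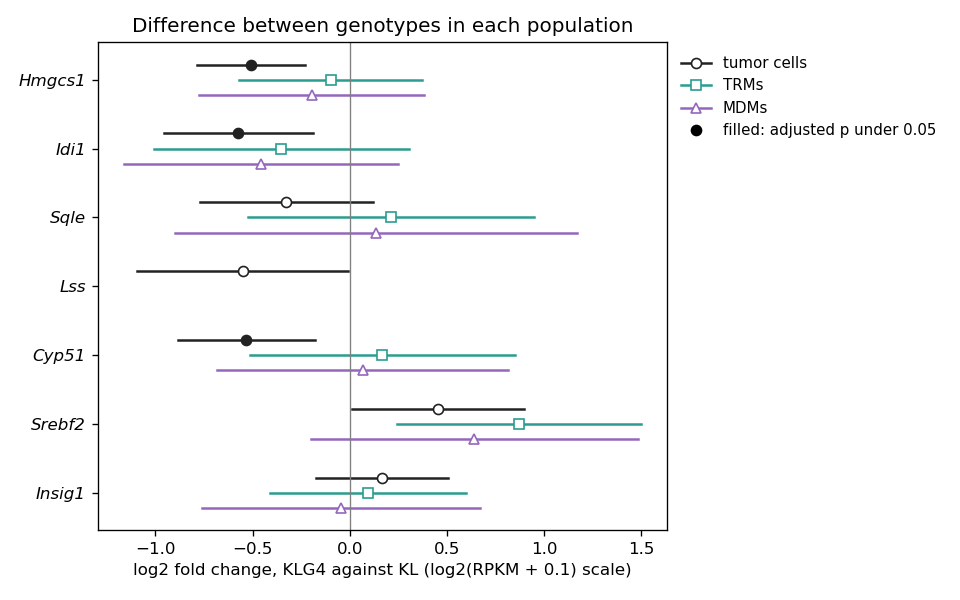
Log2 fold change of KLG4 against KL (horizontal axis, log2(RPKM + 0.1) scale) for each gene in tumor cells (circles), TRMs (squares) and MDMs (triangles), with 95% confidence intervals from limma on 2 libraries per genotype. Filled symbols, which are Hmgcs1, Idi1 and Cyp51 in tumor cells, have an adjusted p under 0.05. Lss was not tested in TRMs and MDMs, and Srebf2 lies right of 0 in each population, at 0.45, 0.87 and 0.64.

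In MDMs none of the set passed the test either, and no gene of the table did. With limma 0 of the 6 tested genes had an adjusted p or an unadjusted p under 0.05, and limma-voom called 0. Over all 10475 genes 0% were called higher and 0% lower, 706 had an unadjusted p under 0.05 by limma, and limma-voom called 0. The 2 KL libraries were the least alike of the 6 pairs, at the chi-square per gene of 132. Without KL replicate 1, 1198 genes were called higher and 1484 lower.

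Srebf2 was at 8.07 and 4.94 RPKM in KL and 10.95 and 8.96 RPKM in KLG4 MDMs, higher without overlap (0.64, 95% confidence interval -0.20 to 1.48, adjusted p = 0.68 by limma). Without KL replicate 1 it was 0.99 and passed (adjusted p = 0.037 by limma), and without KL replicate 2 it was 0.29 (adjusted p = 0.55 by limma). Without KLG4 replicate 1 or 2 it was 0.50 and 0.78 (adjusted p = 1.0 in both by limma). Xist was at 21.8 and 0.839 RPKM in the KL and 19.4 RPKM in each KLG4 MDM library, so that without KL replicate 1 sex and genotype cannot be told apart. Idi1 was at 3.78 and 4.92 RPKM in KL and 3.35 and 2.89 RPKM in KLG4, lower without overlap (-0.46, 95% confidence interval -1.16 to 0.25, adjusted p = 0.68 by limma). These were 1 of 6 tested genes in each direction, where 25.4% of all genes were higher and 19.1% lower without overlap.

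The remaining genes overlapped between the genotypes in MDMs. Hmgcs1 was at 12.1 and 14.6 RPKM in KL and 12.2 and 11.02 RPKM in KLG4 (-0.20, 95% confidence interval -0.77 to 0.38). Cyp51 was at 5.38 and 6.68 RPKM in KL and 7.49 and 5.27 RPKM in KLG4 (0.07, 95% confidence interval -0.68 to 0.82). Insig1 was at 12.8 and 13.4 RPKM in KL and 15.5 and 10.4 RPKM in KLG4 (-0.05, 95% confidence interval -0.76 to 0.67). For Cyp51 and Insig1 the 2 KLG4 libraries lay on either side of the 2 KL libraries. Sqle was at 1.21 and 0.799 RPKM in KL and 1.27 and 0.942 RPKM in KLG4 (0.13, 95% confidence interval -0.90 to 1.17). Lss, which was not tested, was at 0.17 and 0.393 RPKM in KL and 0.171 and 0.164 RPKM in KLG4, on 34 to 48 reads a library.

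Among the other synthesis genes 0 of 12 tested in MDMs were called by limma or limma-voom, and 0 had an unadjusted p under 0.05. Their estimates ran from -0.40 for Ebp, a sterol isomerase, to 0.41 for Lbr, with Acat2 at -0.38 and Fdft1 at -0.39. Stard4 (-0.11) had the lowest estimate among SREBP2 targets outside synthesis. Mbtps1 (0.53) and Srebf1 (0.05), Pggt1b (0.48) and Coq2 (-1.05), and Npc1 (0.59) and Ch25h (-1.66) were the extremes of the remaining lists, and none of these passed. Most AT2 and epithelial markers were lower in KLG4 MDMs (7 of 9 and 5 of 6 without overlap), with the 6 epithelial ones summing to 18.4 to 58.9 RPKM against 72.1 to 255 RPKM in KL, and their part in these values was not tested.

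The order of levels over the 6 groups differed between the genes. The tables were normalised one by one, so levels across populations are a description with no test. Hmgcs1, Sqle, Idi1 and Lss were highest in KL tumor cells and lowest in MDMs. The group mean of Hmgcs1 ran from 43.2 ± 0.262 RPKM (SD, n = 2) in KL tumor cells through 30.4 ± 0.789 RPKM in KLG4 tumor cells, 29.5 ± 2.26 RPKM in KL TRMs and 27.7 ± 4.26 RPKM in KLG4 TRMs to 13.4 ± 1.82 RPKM in KL MDMs and 11.6 ± 0.818 RPKM in KLG4 MDMs. The KLG4 tumor cells and both TRM groups overlapped in this order, as did the MDM groups. Idi1 had a similar order at a lower level, from 14.9 ± 1.15 RPKM in KL tumor cells through 10.2 ± 0.982 RPKM in KL TRMs, 10.0 ± 1.18 RPKM in KLG4 tumor cells and 8.10 ± 2.35 RPKM in KLG4 TRMs, these 3 overlapping as neighbours, to 4.35 ± 0.806 RPKM in KL MDMs and 3.12 ± 0.322 RPKM in KLG4 MDMs.

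Sqle ran from 5.13 ± 0.723 RPKM in KL tumor cells and 4.06 ± 0.173 RPKM in KLG4 tumor cells to 2.80 ± 0.506 RPKM in KLG4 TRMs and 2.39 ± 0.195 RPKM in KL TRMs, which overlapped, and 1.10 ± 0.229 RPKM in KLG4 MDMs and 1.01 ± 0.293 RPKM in KL MDMs, which overlapped too. Lss ran from 1.29 ± 0.0599 RPKM in KL tumor cells through 0.847 ± 0.0460 RPKM in KLG4 tumor cells, 0.767 ± 0.0365 RPKM in KLG4 TRMs and 0.529 ± 0.0404 RPKM in KL TRMs to 0.281 ± 0.158 RPKM in KL MDMs and 0.167 ± 0.00484 RPKM in KLG4 MDMs, with overlap between the MDM groups only. Cyp51 was as high in TRMs, at 12.4 ± 2.80 RPKM in KLG4 and 11.04 ± 2.89 RPKM in KL, as in KL tumor cells, at 10.9 ± 0.353 RPKM. It was at 7.50 ± 0.552 RPKM in KLG4 tumor cells, 6.38 ± 1.57 RPKM in KLG4 MDMs and 6.03 ± 0.918 RPKM in KL MDMs, these 3 overlapping as neighbours.

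The 2 regulators did not share this order. Insig1 varied least, 1.64-fold between its highest and lowest group, and was lowest in tumor cells. It was at 15.5 ± 1.02 RPKM in KLG4 and 14.6 ± 2.31 RPKM in KL TRMs, 13.1 ± 0.443 RPKM in KL and 12.9 ± 3.65 RPKM in KLG4 MDMs, and 10.7 ± 0.653 RPKM in KLG4 and 9.50 ± 0.159 RPKM in KL tumor cells, and only the last 2 neighbours did not overlap. Srebf2 was ordered by genotype first. The 3 KLG4 groups, at 9.95 ± 1.41 RPKM in MDMs, 9.38 ± 0.441 RPKM in tumor cells and 7.56 ± 0.711 RPKM in TRMs, stood above the 3 KL groups, at 6.87 ± 1.23 RPKM in tumor cells, 6.51 ± 2.21 RPKM in MDMs and 4.12 ± 0.869 RPKM in TRMs. KLG4 MDMs overlapped with KLG4 tumor cells, KLG4 TRMs with KL tumor cells and KL tumor cells with KL MDMs, so that the order within and between these genotypes is not fully resolved.

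Within a library, the enzymes can be set against a regulator without any scaling between libraries. This comparison was chosen after the values were seen and carries no test. The mean log2(RPKM + 0.1) of the 5 enzymes minus that of Srebf2 was 0.48 and 0.20 in KL and -0.63 and -0.59 in KLG4 tumor cells. In TRMs it was 0.53 and 0.28 in KL and -0.46 and -0.32 in KLG4. In MDMs it was -1.73 and -0.78 in KL and -2.09 and -2.06 in KLG4. The genotypes did not overlap in any of the 3 populations, and the group means differed by -0.95 in tumor cells, -0.79 in TRMs and -0.82 in MDMs. The mean includes Lss, which was below the filter in TRMs and MDMs. Without Lss the values were 1.14 and 0.87 in KL and 0.064 and 0.070 in KLG4 tumor cells, 1.31 and 1.07 in KL and 0.18 and 0.42 in KLG4 TRMs, and -0.93 and -0.13 in KL and -1.27 and -1.29 in KLG4 MDMs, again without overlap. Against Insig1 the same difference of means was -0.66 in tumor cells, -0.01 in TRMs and -0.13 in MDMs, and it was without overlap in tumor cells only. The mean of the 5 enzymes alone overlapped between the genotypes in TRMs (2.38 and 2.55 in KL, 2.38 and 2.71 in KLG4) and in MDMs (1.30 and 1.56 in KL, 1.38 and 1.124 in KLG4).

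**Figure D4:**
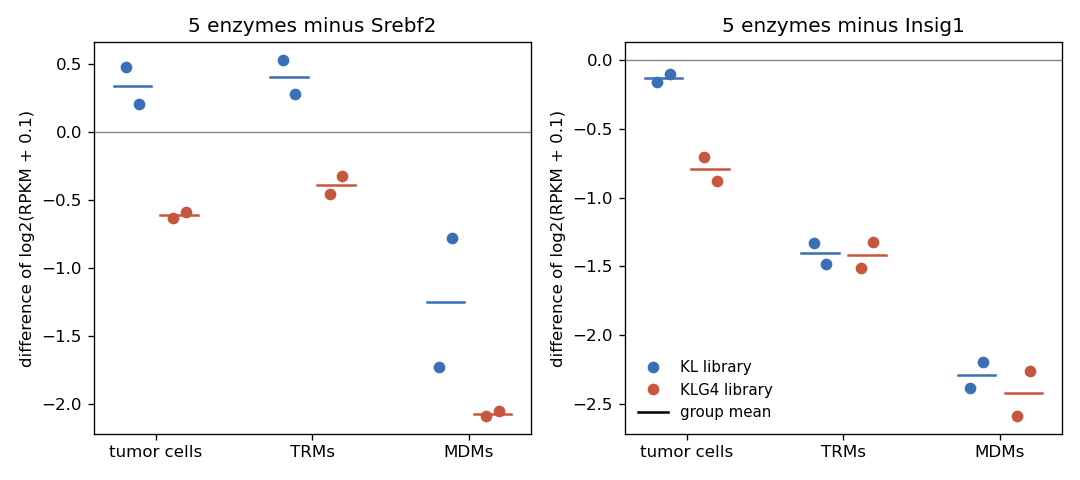
Mean log2(RPKM + 0.1) of the 5 enzymes minus that of Srebf2 (left) or Insig1 (right) in each library, on vertical axes of log2 units, with 1 point per library (blue KL, red KLG4) and a line at the group mean. On the left the red points lie below the blue ones in each population, with differences between means of -0.95, -0.79 and -0.82, and on the right they do so in tumor cells only.

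Across the 12 libraries Hmgcs1 and Idi1 were the pair most alike, with Pearson's r of 0.99 between their log2 levels, and r remained 0.93 after each population was centred on its own mean. Srebf2 and Idi1 were the pair most unlike after centring, at -0.61. Each gene was also correlated with the mean of the other 6. That r was 0.96 for Hmgcs1, 0.92 for Sqle, 0.91 for Idi1 and Lss and 0.73 for Cyp51, and -0.30 for Insig1 and -0.21 for Srebf2. After centring it was 0.59 for Hmgcs1, 0.42 for Sqle, 0.31 for Idi1, 0.34 for Lss, 0.86 for Cyp51, 0.35 for Insig1 and -0.20 for Srebf2, so that Insig1 changed sign. These points share library, depth and population, and no test was made. Of 6227 other genes at a mean of at least 5 RPKM, those whose log2 level followed the mean of the 7 genes most closely were Tmx2, Ubqln1, Firre, Lsg1, Qars, Rpl10a-ps1, Rpap3 and Copb2, with r from 0.97 to 0.98. After centring each population they were Nupl1, Arf6, Agap3, Pmpca, Fdps, 2010320M18Rik, Echdc1 and Osbpl2, with r from 0.84 to 0.89. Fdps, the farnesyl diphosphate synthase gene, was the only other synthesis gene among these 16.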

How the data were processed

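RNA sequencing of 3 sorted populations (tumor cells, TRMs, MDMs) was used. Per the submitters' processing notes and the methods of the study, reads were trimmed with Trim Galore 0.6.4, aligned with HISAT2 2.0.5 to GRCm38 and counted with featureCounts 2.0.0, for an unstranded poly(A) library. The authors deposited RPKM values in 1 table per population, without a factor between libraries. Their own fold changes and test values (log2 fold change, p-value and adjusted p, with a mean level and an F statistic in the TRM and MDM tables) were not used. The deposited tumor cell table alone gave gene lengths, which were carried by name to the others. RPKM multiplied by length gave whole reads (within 0.05) for 100% of values under 2000 reads, which gave the depth. Odd counts made up 17.4% to 32.5% of those below 30, so mates were mostly both counted and counting noise exceeds what read totals imply.

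Groups and replicate numbers came from sample titles. Each table was tested alone with limma 3.58.1 in R 4.3.3, on values of log2(RPKM + 0.1), fitting a trend of variance on level and no other term, for genes at 1 RPKM or more in at least 2 of 4 libraries. Tests were two-sided with Benjamini-Hochberg adjustment over the table, and called means an adjusted p under 0.05. Fold changes are on this scale, which understates those of low genes. An exact permutation test of 2 against 2 libraries cannot go below p = 0.333 and was not used. Genotype effects were not tested against each other across tables. The tests were also run on simulated data in which spreads were shuffled between genes, which differs from the real data. That run is not used as support for any result. Alternatives were pseudocounts of 1 and 0.01, no filter, a mean of at least 5 RPKM, TMM (without weights) and quantile scaling, rescaling to reads outside mitochondrial genes, no trend, a replicate block, limma-voom on recovered reads, and leaving out each library.

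The genes, lists and tests were chosen with earlier results of these data known. Named genes are the 7 members, any listed gene called in a population, the tested gene with the largest and smallest estimate of each list and population, the 8 genes most alike by each correlation, and Gpx4. Insig2 and Mvk in tumor cells, and Mylip, Lipa and Ch25h levels in macrophages, were added after their values were seen. Results for a few listed genes are not reported.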

Additional observations from a re-analysis of the deposited data

Results flagged for a closer look

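Lss was the one gene of the 7 whose libraries moved in opposite directions in different populations, out of 21 pairs of gene and population. It was lower in both KLG4 than in both KL tumor cell libraries and higher in both KLG4 than in both KL TRM libraries. The log2 differences were -0.55 in tumor cells and 0.46 in TRMs, which lie -1.01 apart (tumor cells minus TRMs). The difference between populations was not tested, because the tables were normalised separately and Lss did not pass the filter on low values in TRMs. The median log2 fold change of all genes tested in TRMs was 0.38.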

How the results depend on the processing

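In tumor cells 3 of the 7 genes were called. The number was 5 with quantile scaling, 1 with rescaling to reads outside mitochondrial genes and 0 to 4 when 1 library was left out. Of the other synthesis genes 5 were called, against 3 with a mean of at least 5 RPKM, 3 with reads outside mitochondrial genes, 3 without the variance trend and 1 to 7 when 1 library was left out. The median log2 fold change of the set was -0.51, and moved to -0.31 with a pseudocount of 1 and to -0.40 with reads outside mitochondrial genes. Leaving out a library in TRMs gave 0 to 1 called genes of the set, 0 to 2 other synthesis genes and a median of -0.085 to 0.28, against 0, 0 and 0.13 with all 4. The TRM median was -0.26 with TMM, quantile and mitochondrial rescaling and -0.29 with limma-voom, which called 1 other synthesis gene. Leaving out a library in MDMs gave 0 to 1 called genes of the set and 0 to 3 other synthesis genes.

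Within the set, estimates that changed sign were all uncalled ones in macrophages. Among the other listed genes, some uncalled tumor cell estimates changed sign too, those of Mvk and Dhdds among them. With TMM, quantile, mitochondrial rescaling and limma-voom in turn, TRM estimates were -0.16, -0.20, -0.16 and -0.23 for Sqle, -0.30, -0.29, -0.30 and -0.32 for Insig1, and -0.22, -0.23, -0.22 and -0.27 for Cyp51. Leaving out a library gave -0.26 to 0.058 for Hmgcs1, -0.068 to 0.25 for Insig1 and -0.10 to 0.44 for Cyp51 in TRMs, and -0.14 to 0.41 for Sqle, -0.34 to 0.24 for Insig1 and -0.18 to 0.32 for Cyp51 in MDMs. The cause was not tested, beyond the smaller number of libraries.

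Same-numbered KL and KLG4 libraries did not deviate together (r of their deviations 0.02, -0.06 and 0.05 in tumor cells, TRMs and MDMs). These values show no pairing by number, but 2 libraries per group cannot exclude it. With the replicate number as a block, 2 genes of the set (without Cyp51, adjusted p = 0.0503 by limma) and 4 other synthesis genes were called in tumor cells and 1 other synthesis gene in TRMs. Over all genes the calls ranged with the setting from 1552 to 3889 higher and 375 to 4130 lower in tumor cells (2843 and 2700 as reported), 8 to 2207 higher and 3 to 354 lower in TRMs (150 and 48), and 0 to 1198 higher and 0 to 1484 lower in MDMs (0 and 0). Precision is limited by 2 libraries per group and, for Lss, by read number.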
